A study of Mus musculus with 12 samples.

Results

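Flavin monooxygenases and aldehyde oxidases are 2 unrelated families of oxidising enzymes of the liver. Of the 25676 genes in the deposited table of liver RNA levels, 6 were taken by name: the flavin monooxygenase genes *Fmo1*, *Fmo2*, *Fmo4* and *Fmo5*, and the aldehyde oxidase genes *Aox1* and *Aox3*. All 6 passed the filter on low values. The livers came from 12 mice of the C57BL/6 background, aged 3 to 4 months, with 1 RNA-seq library per mouse. The knockout (KO) mice lacked *Yap1* through a Cre recombinase under the control of *Foxa3*, a gene switched on in the endoderm that later forms hepatocytes and bile duct cells, and the controls were wild type (WT), with no allele named for them. There were 3 male WT, 3 female WT, 3 male KO and 3 female KO mice, and replicate numbers name a mouse within its group only.

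Flavin monooxygenases sit in the endoplasmic reticulum, hold flavin adenine dinucleotide, and use NADPH and molecular oxygen to oxygenate nitrogen and sulfur atoms of drugs and dietary amines. Aldehyde oxidases are cytosolic enzymes that carry a molybdenum cofactor, iron-sulfur clusters and a flavin, and oxidise aldehydes and nitrogen-containing rings with water as the source of the oxygen. In adult mouse liver, several flavin monooxygenases are known as female-predominant and the aldehyde oxidases as male-predominant.

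The *Yap1* level, which checks the labels, was 23.0 to 34.9 TPM in the WT libraries and 0.994 to 3.11 TPM in the KO libraries. TPM is a share of each library's transcripts corrected for gene length, and each column as deposited had the same sum. Whole reads recovered from steps in the TPM values amounted to 16682257 to 23784755 per library over genes that covered 84.9% to 89.5% of the TPM. Differences below are given as log2(TPM + 1), where the added 1 shrinks differences of low genes, each with a standard error (SE) and a limma p-value adjusted over 12278 genes. As deposited, the median tested gene lay 0.35 (log2) higher in KO than in WT over both sexes, 0.44 higher in males and 0.27 higher in females. After rescaling the libraries by the median of ratios, these medians were -0.04, -0.04 and -0.03, so the genotype tests of the 6 genes are given on both scales, and the values of single mice are as deposited. In whole liver, a lower level may mean fewer cells of a type or less RNA per cell, and these cannot be told apart.

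Hepatocyte markers were abundant in all 12 libraries, with a summed level of 72900 to 101000 TPM in WT and 54900 to 80200 TPM in KO over 5 genes (*Alb*, *Ttr*, *Apoa1*, *Hnf4a*, *Asgr1*). Of these 5, 1 was called higher and 1 lower in KO as deposited, and 0 and 3 after rescaling. Among all tested genes, 50.1% were called higher and 4.82% lower as deposited, and 20.9% and 18.7% after rescaling. The 6 pericentral markers summed to 7860 to 12200 TPM in WT and 2630 to 4440 TPM in KO (1 higher, 4 lower; rescaled 0 and 5), and the 5 periportal markers to 1440 to 2250 TPM and 652 to 809 TPM (1 higher, 2 lower; rescaled 1 and 3). The 5 macrophage markers, all called higher in KO on both scales, summed to 37.3 to 121 TPM and 175 to 333 TPM, and the 6 stellate cell and fibroblast markers to 15.4 to 32.2 TPM and 48.2 to 119 TPM (4 higher, 0 lower; rescaled 3 and 1). The 5 bile duct markers summed to 27.7 to 58.5 TPM in WT and 252 to 713 TPM in KO (2 higher, 1 lower on both scales). In KO nearly all of this sum was *Spp1* (232 to 702 TPM), a secreted matrix protein gene that other cells also express. *Krt19*, a defining bile duct keratin gene, was at 0.0552 to 2.26 TPM over the 12 libraries. Of 5 endothelial markers 1 was higher and 1 lower (rescaled 0 and 2). Of 2 tested neutrophil markers 2 were higher as deposited and 0 after rescaling, and no lymphocyte marker of 3 was called on either scale (limma). Of all markers listed, *Ly6g* of neutrophils was the one under 0.5 TPM in every library. The part of these shifts in the members' levels was not tested.

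As deposited, *Fmo1* was higher in KO than in WT males and lower in KO than in WT females. *Fmo2* and *Fmo4* were higher in KO males and did not pass the test in females, *Fmo5* and *Aox1* were higher in KO in both sexes, and *Aox3* was higher in KO females and did not pass in males. After rescaling, the male calls of *Fmo1*, *Fmo5* and *Aox1* were lost, and *Fmo2* in females (-0.75) and *Aox3* in males (-1.06) were called lower in KO. In WT livers 5 of the 6 passed the test for a sex difference as deposited, where 4.6% of all tested genes were called higher in females and 1.14% higher in males. In KO livers 0 of the 6 passed on either scale, where 0.0814% of all tested genes were called on each, so that this count is no more than the background.

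**Figure D1:**
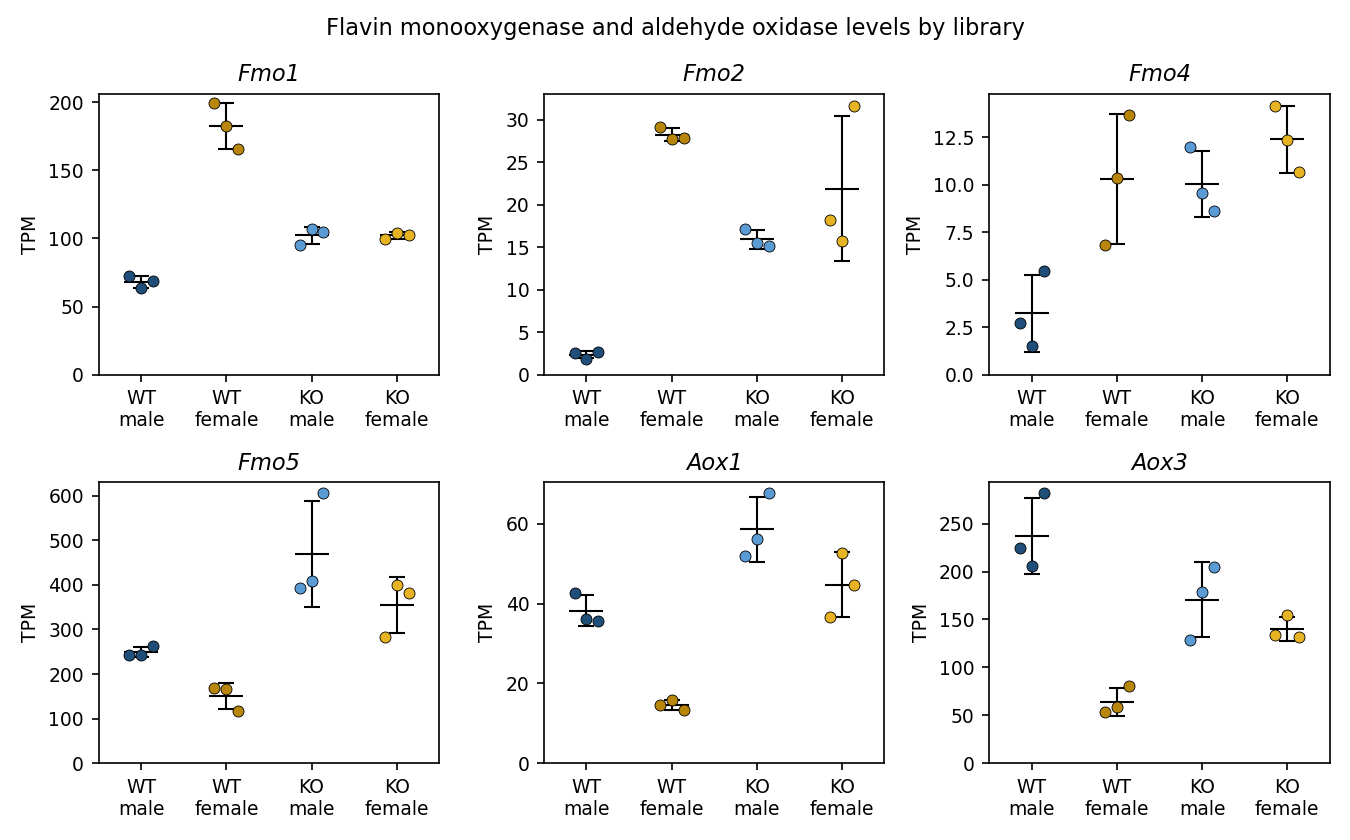
TPM as deposited (vertical axis, linear, from 0) of the 6 genes in each of the 12 libraries, by group on the horizontal axis; points are mice, horizontal bars are group means and error bars are 1 SD of 3 mice. The WT male and WT female points lie apart for every gene, and the KO male and KO female points overlap for every gene. The share of all tested genes whose sexes lie apart or overlap in this way was not computed.

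*Fmo1* encodes a flavin monooxygenase of mouse liver and kidney that acts on many drugs and also oxidises hypotaurine to taurine. In WT males its level was 72.1, 63.4 and 69.1 TPM, and in WT females 199, 182 and 166 TPM. In KO males it was 95.4, 107 and 105 TPM, and in KO females 99.4, 104 and 103 TPM. All WT females lay above all KO mice, all WT males lay below them, and the KO sexes overlapped. After rescaling, the WT males (81.5 to 88.0) overlapped the KO males (78.0 to 92.6). The WT female mean was 2.68-fold the WT male mean (182 ± 17.0 against 68.2 ± 4.45 TPM, SD, n = 3 each), and both KO means were 102 TPM (SD 6.03 in males and 2.51 in females). The KO minus WT difference was 0.58 in males (SE 0.12, limma adjusted p = 0.00215) and -0.83 in females (SE 0.12, limma adjusted p = 0.000221). After rescaling, the male value was 0.01 (adjusted p = 0.983) and the female value -1.18 (adjusted p = 3.6e-05). The male genotype effect minus the female genotype effect was 1.40 (SE 0.17, limma adjusted p = 0.000578) and, rescaled, 1.18 (adjusted p = 0.0055). Over both sexes the difference was -0.12 (SE 0.21, adjusted p = 0.632; exact permutation of genotype within sex, two-sided, p = 0.6), and rescaled -0.59 (adjusted p = 0.0236). With single mice left out, the as-deposited value ran from -0.23 (without WT male 2) to -0.02 (without WT female 1) and did not pass.

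*Fmo2* encodes the flavin monooxygenase best known from the lung. Its level in WT males was 2.52, 1.90 and 2.65 TPM, and in WT females 29.2, 27.7 and 27.9 TPM. The KO males had 17.2, 15.5 and 15.1 TPM and the KO females 18.2, 15.8 and 31.6 TPM. WT males lay below all other mice. KO female 3 lay above all WT females, while KO female 2 was in the range of the KO males and KO female 1 just above it. After rescaling, all KO females (14.05 to 26.98) lay below all WT females (29.23 to 31.39), and WT males (2.62 to 3.13) stayed lowest. The WT female mean was 12-fold the WT male mean, and the KO male mean was 6.76-fold the WT male mean. The KO minus WT difference in males was 2.34 (SE 0.21, limma adjusted p = 4.12e-06) and 1.87 after rescaling (adjusted p = 5.46e-05), the largest rise among the 6 genes on both scales. In females it was -0.42 (SE 0.21, limma adjusted p = 0.15). The female value passed the threshold after rescaling (-0.75, adjusted p = 0.0216) and without KO female 3 (-0.71, adjusted p = 0.00825), and without KO female 2 it was -0.23 (adjusted p = 0.454). The 2 genotype effects differed by 2.76 (SE 0.30, limma adjusted p = 0.00021) and by 2.63 after rescaling (adjusted p = 0.000515).

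Over both sexes the *Fmo2* difference was 0.96 (SE 0.40, limma adjusted p = 0.0585; exact permutation p = 0.085). That value lay near the threshold: without WT female 1, 2 or 3 or KO female 1 or 2 it was 1.12, 1.11, 1.11, 1.16 and 1.20, with limma adjusted p = 0.0395, 0.0428, 0.0439, 0.0312 and 0.0185. After rescaling it was 0.56 (adjusted p = 0.282). The reads behind *Fmo2*, recovered from the TPM steps, numbered 103 to 1733 per library.

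The promoter of *Fmo2* is shown because the gene had the largest rise in males. The stretch lies on chromosome 1 (RefSeq, build GRCm38.p6, chr1:162898759-162899008, minus strand, 250 bases read 5′ to 3′ up to the transcript start). It holds no match to 4 short motifs searched on both strands, the TEAD motif GGAATG, the STAT5 motif TTCNNNGAA, the antioxidant response motif TGACNNNGC and the dioxin response core GCGTG.
Fmo2: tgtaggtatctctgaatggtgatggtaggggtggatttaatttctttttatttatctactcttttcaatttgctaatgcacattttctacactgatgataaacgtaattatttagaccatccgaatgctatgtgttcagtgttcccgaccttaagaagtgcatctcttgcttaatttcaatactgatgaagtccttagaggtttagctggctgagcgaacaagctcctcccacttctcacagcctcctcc
Over all 32817 RefSeq promoter windows of 300 bases, 14.7% held the TEAD letters, 8.29% the STAT5 letters, 12.4% the antioxidant response letters and 32.4% the dioxin response core. A window at another listed start of *Fmo2* had a STAT5 match 12 bases after that start. A match or its absence describes letters in a window and not the binding of a factor.

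*Fmo4* had the lowest mean of the 6 genes over the 12 libraries (8.995 TPM, against 17.1 TPM for *Fmo2*), although *Fmo2* was lower in the WT male mean. It had 55 to 571 recovered reads per library. WT males had 2.71, 1.51 and 5.45 TPM and WT females 6.84, 10.4 and 13.7 TPM. KO males had 11.99, 9.55 and 8.64 TPM and KO females 14.2, 12.4 and 10.7 TPM. WT males lay below all other mice, and the other 3 groups overlapped. After rescaling, the WT males (2.09 to 6.44) met the KO males (6.44 to 11.05) and stayed below both female groups. The KO male mean was 3.12-fold the WT male mean, a difference of 1.49 (SE 0.31, limma adjusted p = 0.00217) and of 1.02 after rescaling (adjusted p = 0.0297). In females the difference was 0.28 (SE 0.31, 95% interval -0.38 to 0.95, limma adjusted p = 0.518) and -0.04 after rescaling (adjusted p = 0.942), and it ran from 0.04 without WT female 1 to 0.50 without WT female 3, neither past the threshold. The male and female effects differed by 1.20 (SE 0.44, 95% interval 0.26 to 2.15), which did not pass after adjustment (limma adjusted p = 0.421), nor did the rescaled value of 1.06 (adjusted p = 0.585). Over both sexes the difference was 0.88 (SE 0.27, limma adjusted p = 0.0132; exact permutation p = 0.02), and rescaled 0.49 (adjusted p = 0.15).

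*Fmo5*, whose product differs from its relatives in oxidising ketones to esters, had the highest mean of the 6 over the 12 libraries (306 TPM), although *Fmo1* was higher in the WT females. WT males had 242, 244 and 262 TPM and WT females 169, 166 and 116 TPM. KO males had 392.2, 408 and 606 TPM and KO females 283, 400 and 381 TPM. Every KO mouse lay above every WT mouse, which held for 1 of the 6 members and for 28.7% of all tested genes. After rescaling, the KO mice lay above the WT mice within each sex, and the KO females (221 to 357) overlapped the WT males (295 to 336). The KO mean was 1.88-fold the WT mean in males and 2.36-fold in females. On the log2 scale the difference was 0.88 in males (SE 0.20, limma adjusted p = 0.00404) and 1.24 in females (SE 0.20, limma adjusted p = 0.000537). After rescaling, the male value was 0.30 (adjusted p = 0.303) and the female value 0.88 (adjusted p = 0.00609). Over both sexes it was 1.06 (SE 0.15, limma adjusted p = 5.67e-05; exact permutation p = 0.005, the smallest p the design allows), and rescaled 0.59 (adjusted p = 0.00949). The male and female effects differed by -0.35 (SE 0.29, 95% interval -0.98 to 0.27, limma adjusted p = 0.728), and by -0.58 after rescaling (adjusted p = 0.7). Leaving out single mice took it from -0.55 (without KO male 3) to -0.18 (without WT female 3), without its passing.

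*Aox1* and *Aox3* are neighbouring genes in the aldehyde oxidase cluster on chromosome 1 and encode the aldehyde oxidases of mouse liver. *Aox1* was at 42.8, 36.3 and 35.7 TPM in WT males and at 14.7, 15.9 and 13.4 TPM in WT females. It was at 51.8, 56.2 and 67.8 TPM in KO males and at 36.6, 52.8 and 44.8 TPM in KO females. WT females lay below all other mice, and all KO males lay above all WT males. After rescaling, the KO males (47.8 to 50.5) lay within the range of the WT males (42.1 to 52.1). The KO mean was 3.06-fold the WT mean in females (44.7 ± 8.12 against 14.6 ± 1.26 TPM, SD, n = 3 each) and 1.53-fold in males (58.6 ± 8.24 against 38.2 ± 3.93 TPM). The difference was 1.54 in females (SE 0.16, limma adjusted p = 1.83e-05) and 0.60 in males (SE 0.16, limma adjusted p = 0.00974). After rescaling, the female value was 1.20 (adjusted p = 0.00025) and the male value 0.03 (adjusted p = 0.908). Over both sexes it was 1.07 (SE 0.17, limma adjusted p = 0.000158; exact permutation p = 0.005), and rescaled 0.61 (adjusted p = 0.0254). The male effect minus the female effect was -0.94 (SE 0.23, limma adjusted p = 0.109) and passed the threshold after rescaling (-1.16, adjusted p = 0.0404).

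*Aox3* was at 224, 206 and 282 TPM in WT males and at 53.3, 58.2 and 80.9 TPM in WT females. It was at 128, 179 and 204.7 TPM in KO males and at 134, 155 and 132 TPM in KO females. The WT sexes lay at the 2 ends, with the KO sexes overlapping between them. The highest KO male, at 204.7 TPM, was just under the lowest WT male, at 206.2 TPM. In females the KO mean was 2.18-fold the WT mean, a difference of 1.13 (SE 0.20, limma adjusted p = 0.000962) and of 0.79 after rescaling (adjusted p = 0.00829). In males the difference was -0.49 (SE 0.20, limma adjusted p = 0.0639), and it passed the threshold after rescaling (-1.06, adjusted p = 0.00126), without the 20 most abundant genes (-0.58, adjusted p = 0.0349), without WT female 3 (-0.49, adjusted p = 0.0487) and without KO male 3 (-0.63, adjusted p = 0.0388). Without KO male 1 it was -0.30 (limma adjusted p = 0.238). The male effect minus the female effect was -1.62 (SE 0.29, limma adjusted p = 0.015) and, rescaled, -1.85 (adjusted p = 0.0031). Without WT female 1 or WT female 2 the as-deposited value was -1.50 or -1.57 and just missed the threshold (limma adjusted p = 0.0531 and 0.0561). Over both sexes the difference was 0.32 (SE 0.26, adjusted p = 0.312; exact permutation p = 0.315), and rescaled -0.14 (adjusted p = 0.731). It ran from 0.18 without WT female 1 to 0.50 without KO male 1, and did not pass with any mouse left out.

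The stretches just before the annotated starts of the 2 aldehyde oxidase genes are shown because the genes lie side by side and shared the male-predominant pattern in WT. Both are read 5′ to 3′ on the plus strand (RefSeq, build GRCm38.p6), *Aox1* at chr1:58029719-58029930 and *Aox3* at chr1:58112886-58113129. Capitals mark the match to the dioxin response core GCGTG, on the minus strand and thus as CACGC in *Aox1*.
Aox1: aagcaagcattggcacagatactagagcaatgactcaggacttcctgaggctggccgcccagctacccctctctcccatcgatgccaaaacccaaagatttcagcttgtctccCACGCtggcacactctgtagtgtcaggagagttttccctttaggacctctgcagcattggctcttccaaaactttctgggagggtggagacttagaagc
Aox3: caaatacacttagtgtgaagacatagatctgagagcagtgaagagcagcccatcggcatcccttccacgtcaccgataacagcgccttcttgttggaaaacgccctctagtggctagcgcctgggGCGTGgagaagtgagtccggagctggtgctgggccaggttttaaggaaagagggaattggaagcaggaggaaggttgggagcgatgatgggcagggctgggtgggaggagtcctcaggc
Each stretch ends just before the gene start listed below, ahead of the RefSeq start (chr1:58029969 in *Aox1*, chr1:58113136 in *Aox3*). The match lay at position -137 from the RefSeq start in *Aox1* and at -125 in *Aox3*, and neither window had a match to the other 3 motifs. Promoter windows were listed for 5 of the 6 genes.

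The counts of genotype calls are set beside the share of all tested genes called. In males 5 of 6 members were called higher in KO and 0 lower, where 43.3% and 2.81% of all tested genes were called. In females 3 of 6 were called higher and 1 lower, beside 29.1% and 4.68%. Over both sexes 3 of 6 were called higher and 0 lower, beside 50.1% and 4.82%. After rescaling, the male calls were 2 higher (*Fmo2*, *Fmo4*) and 1 lower (*Aox3*), beside 13.9% and 10.2% of all tested genes. The rescaled female calls were 3 higher (*Fmo5*, *Aox1*, *Aox3*) and 2 lower (*Fmo1*, *Fmo2*), beside 15.2% and 10.9%. The rescaled calls over both sexes were 2 higher (*Fmo5*, *Aox1*) and 1 lower (*Fmo1*), beside 20.9% and 18.7%.

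The difference between the sexes in the genotype effect was called for 3 of the 6 members (*Fmo1*, *Fmo2*, *Aox3*), where it was called for 0.912% of all tested genes. After rescaling it was called for 4 of the 6, *Aox1* being the other, where it was called for 0.839%.

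**Figure D2:**
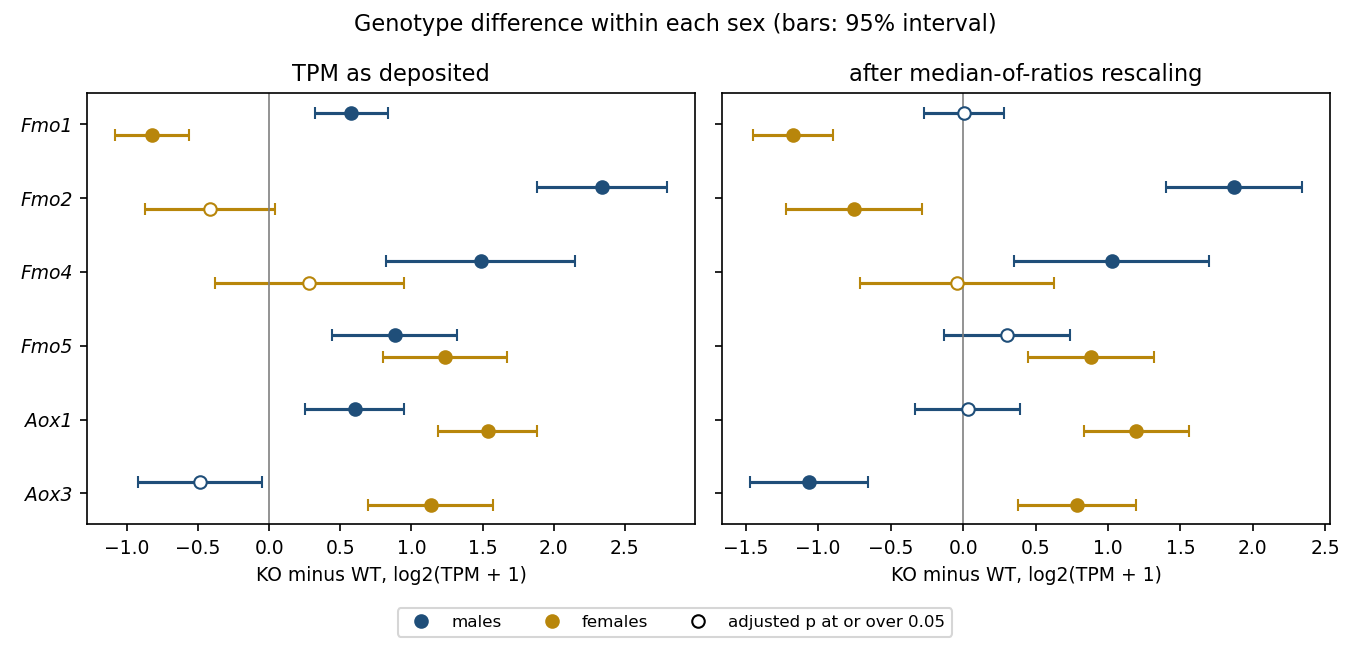
KO minus WT difference in log2(TPM + 1) (horizontal axis) of each gene in males and in females, on TPM as deposited (left) and after median-of-ratios rescaling (right); bars are 95% intervals and open points did not pass the adjusted threshold. For *Fmo1*, *Fmo2* and *Fmo4* the male point lies to the right of the female point, and for *Fmo5*, *Aox1* and *Aox3* to its left, on both scales.

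Among WT mice, *Fmo1*, *Fmo2* and *Fmo4* were called higher in females, and *Aox1* and *Aox3* higher in males. These are 3 and 2 of the 6 members, where 4.6% of all tested genes were called higher in WT females and 1.14% higher in WT males. The male minus female difference in WT was -1.40 for *Fmo1* (SE 0.12, limma adjusted p = 9.01e-06), -3.13 for *Fmo2* (SE 0.21, limma adjusted p = 9.16e-07) and -1.48 for *Fmo4* (SE 0.31, limma adjusted p = 0.0152). The *Fmo4* call was lost without WT male 1 or 2 or WT female 2 or 3, at -1.44, -1.16, -1.45 and -1.27, with limma adjusted p = 0.0515, 0.0611, 0.0609 and 0.0594. The difference was 1.33 for *Aox1* (SE 0.16, limma adjusted p = 0.000263) and 1.88 for *Aox3* (SE 0.20, limma adjusted p = 8.99e-05).

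*Fmo5*, at 0.74 higher in WT males (SE 0.20, limma adjusted p = 0.051), did not pass as deposited, although all 3 WT males lay above all 3 WT females. It passed with a pseudocount of 0.1 (0.75, adjusted p = 0.0465), after rescaling (0.97, adjusted p = 0.0171), without KO male 3 (0.74, adjusted p = 0.0315) and without KO female 1 (0.74, adjusted p = 0.0422). After rescaling, 3 members were thus called higher in WT males and 3 in WT females, where 2.11% and 2.27% of all tested genes were called.

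In KO mice 0 of the 6 members passed the test for a sex difference (limma), where 0.0814% of all tested genes did, 10 genes, and 655 genes had an unadjusted p under 0.05. *Aox1*, with an unadjusted p = 0.0316 in limma, was the 1 member among those 655. The male minus female difference in KO was -0.00 for *Fmo1* (95% interval -0.26 to 0.26), -0.37 for *Fmo2* (-0.83 to 0.09) and -0.28 for *Fmo4* (-0.95 to 0.39). It was 0.39 for *Fmo5* (-0.05 to 0.83), 0.39 for *Aox1* (0.04 to 0.74) and 0.26 for *Aox3* (-0.18 to 0.70). The adjusted p-values in limma ran from 0.859 to 1.0. Single mice moved these small values by over 1.5 times, without any passing the test. *Fmo2* was at -0.09 without KO female 3 and -0.57 without KO female 2, and *Fmo4* at -0.19 without KO male 3 or KO female 1. *Fmo5* was at 0.19 without KO male 3 and 0.23 without KO female 1, *Aox1* at 0.26 without KO female 1, and *Aox3* at 0.12 without KO male 3 and 0.45 without KO male 1. The test of whether the sex difference itself changed with genotype is the difference of genotype effects given above, which was called for *Fmo1*, *Fmo2* and *Aox3*, and these contrasts share the same WT libraries.

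**Figure D3:**
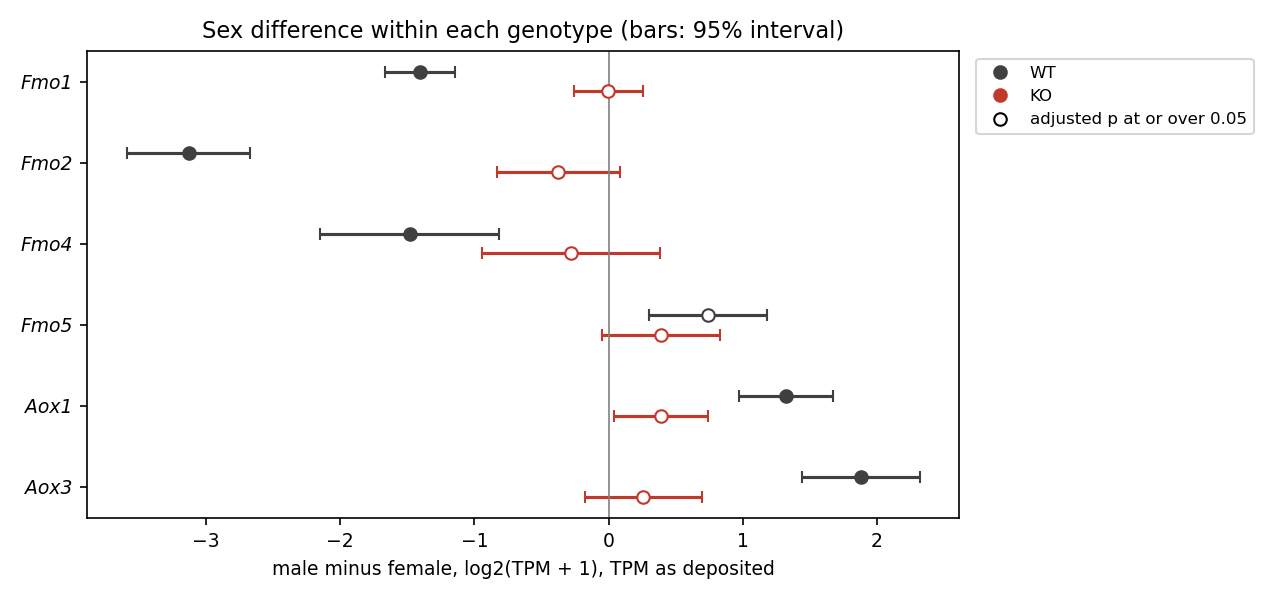
Male minus female difference in log2(TPM + 1), on TPM as deposited (horizontal axis), of each gene in WT and in KO mice; bars are 95% intervals and open points did not pass the adjusted threshold. The WT points span -3.13 for *Fmo2* to 1.88 for *Aox3*, and the KO points span -0.37 to 0.39.

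Summed TPM of the 6 genes was 553 to 657 in WT males, 418 to 473 in WT females, 697 to 1007 in KO males and 585 to 740 in KO females, as deposited, without overlap between the WT sexes or between genotypes within a sex. After rescaling, the sums were 715 to 775 and 456 to 509 in WT males and females, and 642 to 751 and 456 to 661 in KO males and females. The genotypes then overlapped in each sex, the KO males reaching lower than the WT males, and the WT sexes remained apart. The 2 families took different parts of that sum. The 4 flavin monooxygenases summed to 310 to 339 TPM in WT males and 324 to 405 TPM in WT females, which overlapped. In KO they summed to 517 to 735 TPM in males and 415 to 532 TPM in females, each above the WT mice of that sex. After rescaling, KO males (468 to 548) still lay above WT males (389 to 428), and KO females (323 to 475) overlapped WT females (353 to 436). The 2 aldehyde oxidases summed to 242 to 318 TPM in WT males and 68.0 to 94.2 TPM in WT females. In KO mice the aldehyde oxidases summed to 180 to 273 TPM in males and 170 to 208 TPM in females, so that all KO females lay above all WT females. That also held after rescaling (133 to 185.5 against 73.2 to 103), where all KO males (166 to 204) lay below all WT males (326 to 375). In males most of the rescaled flavin monooxygenase sum was *Fmo5* (295 to 336 in WT, 354 to 452 in KO). Most of the rescaled aldehyde oxidase sum in males was *Aox3* (273 to 333 in WT, 118 to 155 in KO).

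Levels over the 12 libraries, which share the genotype and sex groups, are compared by Pearson's r of log2(TPM + 1), given as a description. This r was computed on TPM as deposited only, not after rescaling. It was 0.84 between *Fmo1* and *Fmo2*, 0.84 between *Fmo2* and *Fmo4*, and 0.57 between *Fmo1* and *Fmo4*. *Fmo5* was nearer to the aldehyde oxidases, with 0.94 to *Aox1* and 0.60 to *Aox3*. It was -0.93 between *Fmo1* and *Aox3* and -0.06 between *Fmo2* and *Fmo5*. Within the aldehyde oxidases it was 0.78.

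The tested genes whose levels as deposited were most like a member's over the 12 libraries included other genes with a sex difference in WT means. For *Fmo1* they were *Cyp2a22* and *Ces1c* (r = 0.96 each), a cytochrome P450 and a carboxylesterase gene. For *Fmo2* they were *Tcn2* (r = 0.99), which encodes the vitamin B12 carrier transcobalamin, and *Cyp2a4* (r = 0.97), a steroid hydroxylase gene with a mean of 1.36 TPM in WT males, 2030 in WT females, 169 in KO males and 482 in KO females. For *Fmo4* they were *Nipal1* (r = 0.97) and *Prps2* (r = 0.96), and for *Fmo5* they were *Nt5dc3* (r = 0.97) and *Foxp4* (r = 0.96). For *Aox1* they were *Gpd1* (r = 0.98), encoding glycerol-3-phosphate dehydrogenase, and *C6* (r = 0.96), a complement gene with group means of 166, 8.73, 247 and 159 TPM in WT males, WT females, KO males and KO females. For *Aox3* they were *Mup20* (r = 0.96), which encodes the male urinary pheromone darcin, at 9950, 104, 5240 and 1690 TPM in the same order, and *Nox4* (r = 0.94). *Cyp2a4*, *Cyp2a22* and *Mup20* belong to families of near-identical genes, so their values are uncertain.

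Genes of related function were read over both sexes, where the median of all tested genes was 0.35 as deposited and the shares called higher and lower in KO were those given above, 50.1% and 4.82% (20.9% and 18.7% after rescaling). Of 4 tested molybdenum enzymes, 1 was higher and 1 lower in KO, with a median of 0.18. *Xdh*, encoding xanthine dehydrogenase, differed by 0.56 (limma adjusted p = 0.00169; rescaled 0.10, adjusted p = 0.553) and *Marc2*, encoding an amidoxime-reducing enzyme, by -0.38 (limma adjusted p = 0.00715; rescaled -0.84, adjusted p = 1.7e-05). *Aox2* and *Aox4* stayed under the filter. Of 5 genes of molybdenum cofactor synthesis and sulfuration, 2 were higher and 1 lower (median 0.10). *Mocos*, whose product adds the sulfur that aldehyde oxidases need, differed by 0.63 (limma adjusted p = 0.0138; rescaled 0.18, adjusted p = 0.551) and *Mocs3* by 0.43 (limma adjusted p = 0.0146; rescaled 0.03, adjusted p = 0.9). *Mocs1*, the gene of the lower call, differed by -0.39 (rescaled -0.85) and was named after its value was seen. After rescaling, 0 genes of these 2 lists were higher, and 2 and 3 were lower.

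Of 7 genes of flavin supply and microsomal electron transfer, 4 were higher in KO and 0 lower (median 0.44), a share near the 50.1% of all tested genes. The riboflavin transporter gene *Slc52a3* differed by 0.83 (limma adjusted p = 0.00185), from a mean of 0.171 TPM in WT to 1.15 TPM in KO, and the riboflavin kinase gene *Rfk* by 0.44 (limma adjusted p = 0.0219; rescaled -0.01, adjusted p = 0.955). After rescaling 1 was higher, *Slc52a3* (0.66, adjusted p = 0.00512), and 2 were lower. Of 8 tested aldehyde dehydrogenases, 3 were higher and 1 lower (median -0.00). *Aldh1a7* differed by 1.22 (limma adjusted p = 3.38e-06) and *Aldh1a3*, encoding a retinal dehydrogenase, by 1.03 (limma adjusted p = 3.73e-05), the latter at a mean of 0.158 TPM in WT and 1.38 TPM in KO. Both stayed higher after rescaling (0.75 and 0.85), where 5 of the list were lower. Of 5 tested genes of taurine and nicotinamide metabolism, 3 were higher and 0 lower (median 0.55), again near the 50.1% of all tested genes, and after rescaling 1 was higher and 1 lower. *Csad*, which encodes the decarboxylase that forms hypotaurine, differed by 1.76 (limma adjusted p = 0.000236) and by 1.30 after rescaling (adjusted p = 0.00549). *Nnmt*, encoding nicotinamide N-methyltransferase, differed by 0.75 (limma adjusted p = 0.0135) and by 0.29 after rescaling (adjusted p = 0.364).

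**Figure D4:**
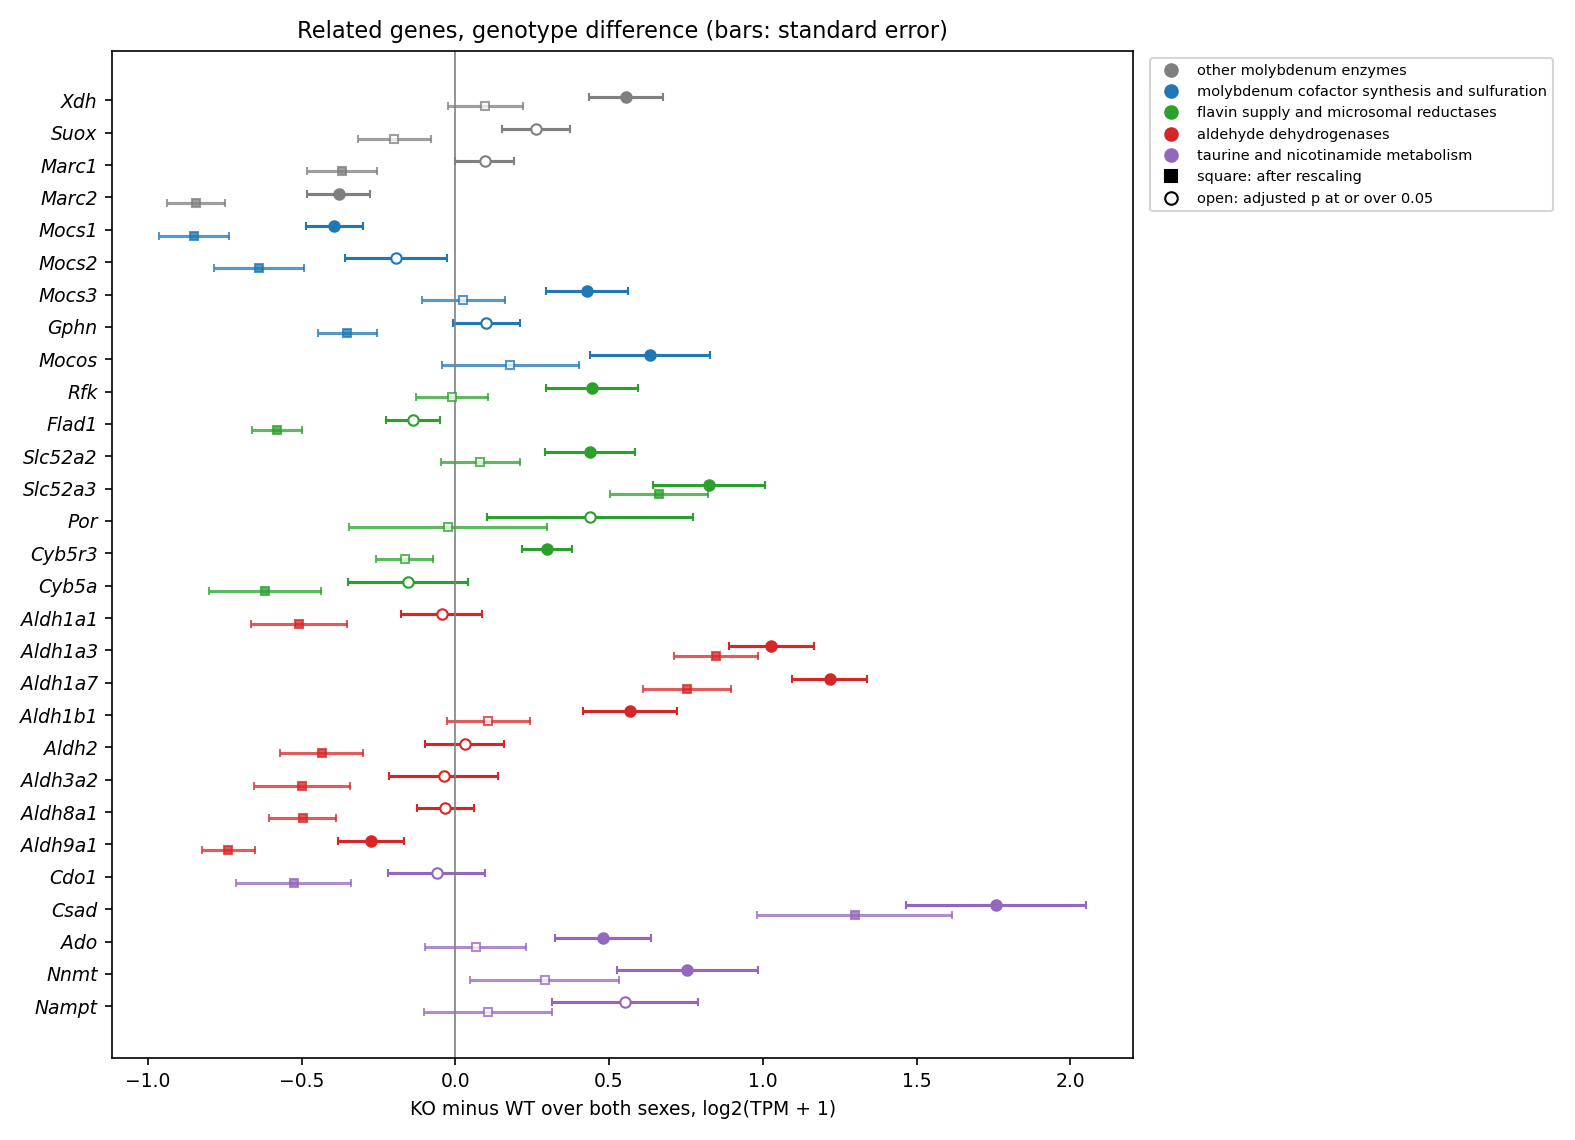
KO minus WT difference over both sexes in log2(TPM + 1) (horizontal axis) of the tested genes of 5 lists, on TPM as deposited (circles) and after rescaling (squares); bars are standard errors and open symbols did not pass the adjusted threshold. *Csad*, *Aldh1a7*, *Aldh1a3* and *Slc52a3* are filled to the right of 0 on both scales, and every square lies to the left of its circle.

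In build GRCm38, *Fmo1* (ENSMUSG00000040181) lies at chr1:162829561-162866610, *Fmo2* (ENSMUSG00000040170) at chr1:162874317-162898726 and *Fmo4* (ENSMUSG00000026692) at chr1:162793188-162813972, all on the minus strand of 1 cluster. *Fmo5* (ENSMUSG00000028088) lies apart, at chr3:97628804-97655282 on the plus strand. *Aox1* (ENSMUSG00000063558) lies at chr1:58029931-58106413 and *Aox3* (ENSMUSG00000064294) at chr1:58113130-58200698, both on the plus strand. All 6 are protein-coding genes, and no exon of another gene overlaps theirs. Of the 50-base words in their transcripts, 7.02% in *Fmo1*, 0.43% in *Fmo5* and 0.61% in *Aox1* also occur in another gene, and 0% in *Fmo2*, *Fmo4* and *Aox3*. No such word is shared with any other *Fmo* or *Aox* gene.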

How the data were processed

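Bulk RNA-seq of 12 mouse livers was analysed. The authors deposited TPM per gene and mouse, per the file headers, without pooling; the submitters' processing notes name build GRCm38 and edgeR, with no role or version, and the aligner, counter and use of strand are not given in the sources used here. The authors' deposited signed fold change (a score), log2 fold change and FDR p-value were read for comparison only. Unmatched per-sample columns numbered 0. Groups came from sample titles.

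Genes whose mean reached 0.5 TPM were fitted as log2(TPM + 1) with limma 3.58.1 in R 4.3.3 (intensity trend, Benjamini-Hochberg adjustment over all tested genes, threshold 0.05). The genotype fit had sex as a covariate; the other contrasts came from 1 model of 4 group means. Exact permutation used all 400 arrangements within sex. Alternatives were a pseudocount of 0.1, no filter, median-of-ratios rescaling, removal of the 20 most abundant genes, no trend, no sex covariate and exact permutation (both for the genotype fit), a covariate for 2 early animal numbers, and leaving out each mouse. The model was tested on simulated data without a shift of the median gene between genotypes, so that run does not cover such a shift. For 15763 of 15767 genes tried, TPM steps gave whole reads within 0.02.

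Named genes were the 6 members, *Yap1*, the 2 largest called changes per list, and the 2 genes most correlated with each member; 1 related list is not reported here. Members and lists were chosen with earlier results of these data known, and the promoters, motifs, shared words and recovered reads were looked at after seeing the data. Each library is 1 animal, and the limma p-values set group differences against the spread between animals. Gene positions are from GENCODE M21 and promoters from RefSeq.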

Additional observations from a re-analysis of the deposited data

Results flagged for a closer look

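The genotype effect differed between the sexes, by the interaction test in limma, for *Fmo1* (male minus female 1.40), *Fmo2* (2.76) and *Aox3* (-1.62). As deposited, all 3 KO males lay above all WT males for *Fmo1* and all 3 KO females below all WT females, and *Aox3* showed the opposite arrangement. After rescaling, *Fmo1* in KO males overlapped WT males (difference 0.0052, limma adjusted p = 0.983), while the female side of *Fmo1* and both sides of *Aox3* kept their separation.

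*Fmo2* in KO female 3 stood apart from the other 5 KO mice at 31.6 TPM, against 15.1 to 18.2 TPM in the others. The gap to the nearest mouse was 0.813 of the range of the 6, more than Dixon's 95% critical value for 6 samples. Of 12 sets of 6 mice looked at (6 genes in 2 genotypes, sexes pooled), chance would set apart about 1 in 20.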

How the results depend on the processing

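Over 36 values (6 genes in 6 comparisons) and 660 alternatives, 627 kept direction and side of the threshold, 10 fell short of it, 17 newly passed it and 6 changed sign; 21 values kept both throughout. After median-of-ratios rescaling, which moved the median of all genes, the KO minus WT difference over both sexes was -0.59 for *Fmo1* (newly past), 0.49 for *Fmo4* (no longer past) and -0.14 for *Aox3* (sign changed), the *Fmo4* difference in females was -0.040 (sign changed), the male minus female difference of *Fmo1* in KO was 0.00070 (sign changed), and the male minus female genotype effect of *Aox1* was -1.16 (newly past). With each mouse left out in turn, the *Fmo2* difference over both sexes ran from 0.76 to 1.20, the *Aox3* interaction from -1.80 to -1.43, and the *Fmo1* sex difference in KO from -0.032 to 0.048. Counts of called genes moved too: 2959 after rescaling against 5663 for KO minus WT in males, 409 with the covariate for early animal numbers against 705 for the sexes in WT, and, leaving out each mouse, 291 to 1698 for the sexes in WT, 6 to 10 against 10 for the sexes in KO, and 75 to 176 against 112 for the interaction. The cause was not tested. The covariate for early animal numbers changed no call of a member. No paired analysis was possible because replicate numbers only name mice in order of deposition. Depth limits *Fmo4* most, at 55 reads in the lowest library.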

Other observations

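The authors' own KO against WT comparison is not split by sex in their table. In the authors' deposited table the log2 fold change was -0.35 for *Fmo1* (FDR 0.4), 1.63 for *Fmo2* (FDR listed at 0), 1.24 for *Fmo4* (FDR listed at 0), 0.23 for *Fmo5* (FDR 0.65), 0.07 for *Aox1* (FDR 0.88) and -0.77 for *Aox3* (FDR 0.13). Beside these, the rescaled limma differences in males were 0.01, 1.87, 1.02, 0.30, 0.03 and -1.06 in the same gene order, and in females -1.18, -0.75, -0.04, 0.88, 1.20 and 0.79. After rescaling, the value in the authors' deposited table lay nearer to the male than to the female difference for 6 of 6 genes, and nearer to the male difference than to the one over both sexes for 5 of 6, *Fmo1* being the exception. On TPM as deposited these counts, against the same values of the authors' deposited table, were 5 of 6 and 4 of 6. *Fmo5* and *Aox1*, which passed the limma test over both sexes on both scales, were thus not past an FDR of 0.05 in the authors' deposited table. This was looked at after seeing the data, and its cause was not tested.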
